A study of Oryza sativa with 5 samples.

Results

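The regions described here are the peaks of histone H3 trimethylated at lysine 4 (H3K4me3) and of histone H3 trimethylated at lysine 27 (H3K27me3) that lie in the first 3 Mb of rice chromosomes 11 and 12. A peak was a member when its midpoint lay below 3.0 Mb on either chromosome in any of the 4 deposited lists, and its height, width and mark played no part in the choice. The rule took in 1941 of the 96576 peaks of the 4 lists. They were 609 of 29941 and 515 of 27411 peaks in H3K4me3 replicates 1 and 2, and 399 of 19774 and 418 of 19450 peaks in H3K27me3 replicates 1 and 2.

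As background, the short-arm ends of rice chromosomes 11 and 12 are known to share a large duplicated segment whose copies are more alike in sequence than other duplicated parts of the rice genome. H3K4me3 is usually found at the starts of active genes. H3K27me3 is laid down by Polycomb repressive complex 2 and is usually found over genes that are kept silent, often in domains many nucleosomes long. No sequence was used here, so the likeness of the 2 ends in sequence, the limits of the duplication and the genes within it were not measured.

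The cells were rice (Oryza sativa) male meiocytes, also called pollen mother cells, at early prophase I, when chromosomes pair. Chromatin from 8000 to 10000 cross-linked cells was cut back with micrococcal nuclease and sheared by sonication, and an antibody against either mark was used for the precipitation, with 2 libraries per mark that the labels call biological replicates. An input library was not analysed here, and the labels give no genotype, cultivar or treatment for any library. Each library is a list of peaks called by the authors, so read depth is unknown, and a value below describes called peaks and not read coverage. The cell type could not be checked against marker genes, because no gene table lies on the coordinates of the lists. Over all chromosomes the lists covered 19.1 and 13.5 Mb with H3K4me3 and 25.7 and 21.2 Mb with H3K27me3 (replicates 1 and 2).

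The first comparison set each end beside the rest of its own chromosome. H3K4me3 was denser in both ends. On chromosome 11 there were 318 and 262 peaks in the end (replicates 1 and 2), or 106.0 and 87.3 per Mb, against 49.0 and 43.5 per Mb in the remaining 26.0 Mb. On chromosome 12 there were 291 and 253, or 97.0 and 84.3 per Mb, against 50.5 and 44.3 per Mb in the remaining 24.5 Mb. The density in the end was thus 2.09 ± 0.110 times that of the rest on chromosome 11 and 1.91 ± 0.0122 times on chromosome 12 (mean ± SD, n = 2 libraries). The lower library of each end lay above the higher library of its rest.

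H3K4me3 peaks covered 5.56% and 3.66% of the chromosome 11 end, against 2.95% and 1.97% of the rest. On chromosome 12 they covered 5.05% and 3.42% of the end, against 3.09% and 2.07% of the rest. The ratio of coverage, end over rest, was 1.87 ± 0.0151 on chromosome 11 and 1.64 ± 0.0160 on chromosome 12 (mean ± SD, n = 2 libraries). These ratios are smaller than those of density, and the peaks of the ends were narrower. The median width was 457 and 372.5 bp in the chromosome 11 end against 526 and 398 bp in the rest, and 441 and 345 bp against 543 and 408 bp on chromosome 12. All 4 differences had the same sign.

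H3K27me3 was also denser in the ends, by less, and the 2 chromosomes were less alike. The chromosome 11 end held 242 and 244 peaks, or 80.7 and 81.3 per Mb, against 61.3 and 60.2 per Mb in the rest. The chromosome 12 end held 157 and 174, or 52.3 and 58.0 per Mb, against 48.3 and 48.6 per Mb. Coverage was 10.2% and 8.64% of the chromosome 11 end against 6.90% and 5.59% of the rest, a ratio of 1.51 ± 0.0466. On chromosome 12 it was 6.80% and 5.97% against 6.03% and 5.21%, a ratio of 1.14 ± 0.0126 (mean ± SD, n = 2 libraries each). When the end was closed at 2.0 Mb in place of 3.0 Mb, the chromosome 12 ratio was 0.942 and the chromosome 11 ratio 1.04, so most of the H3K27me3 excess over the rest lay between 2 and 3 Mb.

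The excess of the end over the rest was larger for H3K4me3 than for H3K27me3 in all pairings of libraries on both chromosomes when all peaks were used. The log2 coverage ratio was 0.91 for H3K4me3 and 0.60 for H3K27me3 on chromosome 11, a difference of 0.31, and 0.72 and 0.19 on chromosome 12, a difference of 0.53. With 2 libraries against 2, an exact two-sided permutation test cannot go below p = 0.33, the value obtained on each chromosome. A −log10 q of at least 5 was reached by 95.8% and 71.9% of H3K4me3 peaks over all chromosomes (replicates 1 and 2). Of the H3K27me3 peaks only 24.4% and 17.1% reached it, so this threshold removed far more of that mark. When peaks needed a −log10 q of at least 5, the difference was 0.024 on chromosome 11 (exact permutation p = 1.0), where the libraries no longer separated by mark, and 0.43 on chromosome 12 (exact permutation p = 0.33).

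Set side by side, the 2 ends carried nearly the same amount of H3K4me3 and different amounts of H3K27me3. H3K4me3 coverage of the chromosome 11 end was 1.10 and 1.07 times that of the chromosome 12 end in replicates 1 and 2, whereas H3K27me3 coverage was 1.50 and 1.45 times as high. Over all 4 libraries chromosome 11 was higher by a mean of 0.34 on the log2 scale, in 4 of 4 libraries (exact two-sided sign-flip permutation p = 0.13, the smallest that 4 libraries allow). The pooled mean and its test describe neither mark alone, since the mean log2 ratio was 0.12 for H3K4me3 and 0.56 for H3K27me3. The difference between the marks in this log2 ratio was -0.44 (exact permutation p = 0.33, the smallest possible for 2 against 2). With the end closed at 2.0 Mb the H3K4me3 ratio was 0.984 and the H3K27me3 ratio 1.26. The pooled log2 mean was then 0.16 (exact two-sided sign-flip permutation p = 0.5), so the libraries no longer all had the same sign. In the rest of the chromosomes the ratios of chromosome 11 to 12 were 0.955 and 0.951 for H3K4me3 and 1.15 and 1.07 for H3K27me3.

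Peak widths and ranks of H3K27me3 gave a mixed picture. Median widths were 724 and 610 bp in the chromosome 11 end against 670 and 575 bp in the rest, and 773 and 567 bp against 671 and 569 bp on chromosome 12, where the replicates moved in opposite directions. Fold enrichment is the authors' own value for each peak and was read only as a percentile within 1 list. The median percentile of H3K4me3 peaks was 43.9 and 49.0 in the chromosome 11 end against 45.1 and 46.7 in the rest, with the replicates again on opposite sides. On chromosome 12 it was 43.5 and 46.6 against 51.2 and 50.3, lower in both libraries. For H3K27me3 the percentiles were 52.3 and 57.8 against 53.7 and 53.2 on chromosome 11, and 54.5 and 53.0 against 55.6 and 56.0 on chromosome 12.

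The starts of the other 10 chromosomes put these values in context. In absolute terms neither end stood out. Mean H3K4me3 coverage of the first 3 Mb was 4.61% on chromosome 11 and 4.24% on chromosome 12, the 8th and 9th highest of 12 chromosomes, with a median of 5.74% (range 1.79 to 7.62%) over the others. Mean H3K27me3 coverage was 9.42% and 6.39%, the 6th and 9th highest, with a median of 9.33% (range 1.22 to 18.0%) over the others. Relative to the rest of the same chromosome the order for H3K4me3 differed. The ratio on chromosome 11 was the highest of 12 and that on chromosome 12 the 3rd highest, after 1.76 on chromosome 6, and the median over the other 10 was 1.31 (range 0.406 to 1.76). The 2 libraries of chromosome 6 gave 1.65 and 1.87, which reach into the libraries of chromosome 11 (1.88 and 1.86) and of chromosome 12 (1.63 and 1.65), whereas both libraries of chromosome 11 lay above those of chromosome 12. For H3K27me3 the ratios of chromosomes 11 and 12 were the 7th and 9th highest, with a median of 1.58 over the others.

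**Figure D1:**
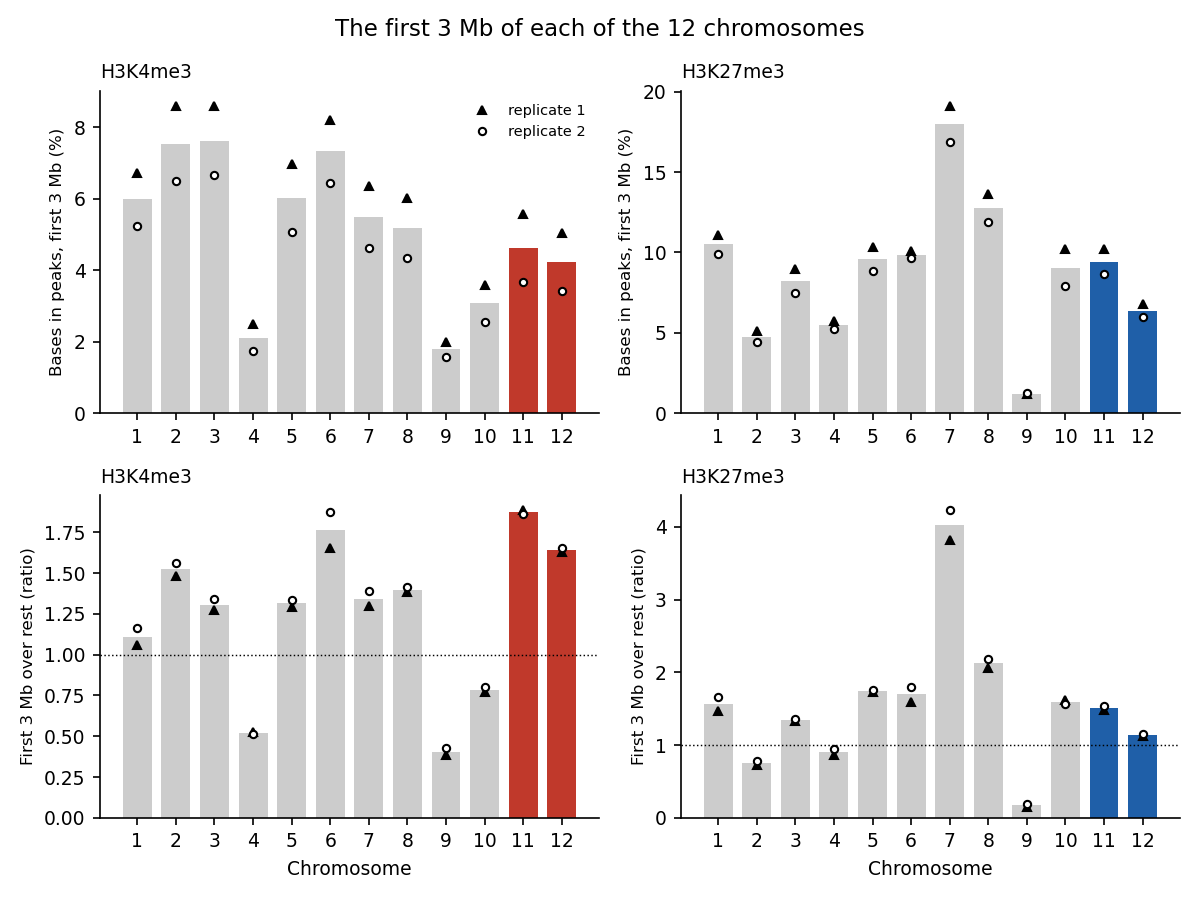
Coverage by peaks in the first 3 Mb of each of the 12 chromosomes (top, percent of bases) and its ratio to the coverage of the rest of the same chromosome (bottom), for H3K4me3 (left) and H3K27me3 (right). Bars are means of 2 libraries, symbols single libraries, colours mark chromosomes 11 and 12, and dotted lines mark a ratio of 1. The H3K4me3 ratios of chromosomes 11 and 12 were 1.87 and 1.64, while their coverage of 4.61% and 4.24% lay below the median of 5.74% of the other chromosomes.

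The rest of chromosomes 11 and 12 had the lowest H3K4me3 coverage among the 12 chromosomes. It was 2.95% and 1.97% on chromosome 11 and 3.09% and 2.07% on chromosome 12 (replicates 1 and 2). The next lowest was 4.35% and 3.06%, on chromosome 8. Within both chromosomes coverage was lowest in inner blocks, and the inner parts of other chromosomes were not compared. In blocks of 3 Mb, mean H3K4me3 coverage on chromosome 11 was 4.61% in the first and 4.11% in the next block, and 1.31% at 12 to 15 Mb. On chromosome 12 it was 4.24% and 2.94% in the first blocks, 1.15% at 6 to 9 Mb, 1.76% at 12 to 15 Mb and 1.10% at 15 to 18 Mb. The far ends of the chromosomes were unlike each other. The last 3 Mb of chromosome 11 had 2.37% and 1.76% H3K4me3 coverage (replicates 1 and 2), well under the first 3 Mb. The last 3 Mb of chromosome 12 had 6.88% and 4.86% H3K4me3 and 13.4% and 11.6% H3K27me3, above its first 3 Mb in both marks. Against the last 3 Mb, the coverage ratio of the chromosome 12 end was therefore 0.719 for H3K4me3 and 0.511 for H3K27me3, against 2.22 and 1.54 on chromosome 11.

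Within the ends, coverage was followed in 30 steps of 100 kb. The first 100 kb of both chromosomes were nearly free of peaks. Chromosome 11 carried 1 H3K4me3 peak there, at 4369 to 4769 in replicate 1 and 4477 to 4770 in replicate 2, and none other up to 107836 in replicate 1 and 128388 in replicate 2. Chromosome 12 carried 1 H3K4me3 peak at 2732 to 3164 and 2829 to 3083, and none other up to 103625 and 103645. These gaps of 103 and 124 kb on chromosome 11 and of 100 and 101 kb on chromosome 12 were the widest H3K4me3 gaps of their ends in all 4 cases. H3K27me3 had 1 peak, of 256 and 237 bp, in the first 100 kb of chromosome 11 and none on chromosome 12.

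Beyond the first step H3K4me3 was spread more evenly than H3K27me3. Every step from 100 kb to 3 Mb held H3K4me3 in both libraries of both chromosomes, and the SD over the 30 steps was 0.472 of the mean on chromosome 11 and 0.448 on chromosome 12. The 3 highest steps held 18.3% and 17.5% of the covered bases. On chromosome 11 the highest was 2.5 to 2.6 Mb, with 11.5% and 6.30% (replicates 1 and 2), followed by 2.2 to 2.3 Mb with 8.87% and 7.95%. On chromosome 12 the highest was 2.4 to 2.5 Mb, with 9.21% and 5.74%, followed by 1.7 to 1.8 Mb with 10.2% and 4.63%. The third Mb carried the most in each end, with 6.36% on chromosome 11 against 3.72% and 3.76% in the first and second, and 5.12% on chromosome 12 against 3.25% and 4.34% (means of 2 libraries).

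H3K27me3 was concentrated in few steps. Its SD over the steps was 1.20 of the mean on chromosome 11 and 1.04 on chromosome 12, and the 3 highest steps held 38.4% and 32.4% of the covered bases. On chromosome 11 these were 2.8 to 2.9 Mb with 45.2% and 41.9% (replicates 1 and 2), 2.6 to 2.7 Mb with 37.8% and 37.3%, and 1.9 to 2.0 Mb with 31.5% and 23.6%. On chromosome 12 they were 0.7 to 0.8 Mb with 30.6% and 25.1%, 1.8 to 1.9 Mb with 21.8% and 16.1%, and 2.7 to 2.8 Mb with 15.5% and 15.0%. In 5 steps of chromosome 11 and 7 of chromosome 12 the mean coverage was under 1%. By Mb, coverage was 5.74, 7.89 and 14.6% on chromosome 11 and 5.30, 5.51 and 8.35% on chromosome 12, so that the surplus of chromosome 11 was greatest in the third Mb.

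**Figure D2:**
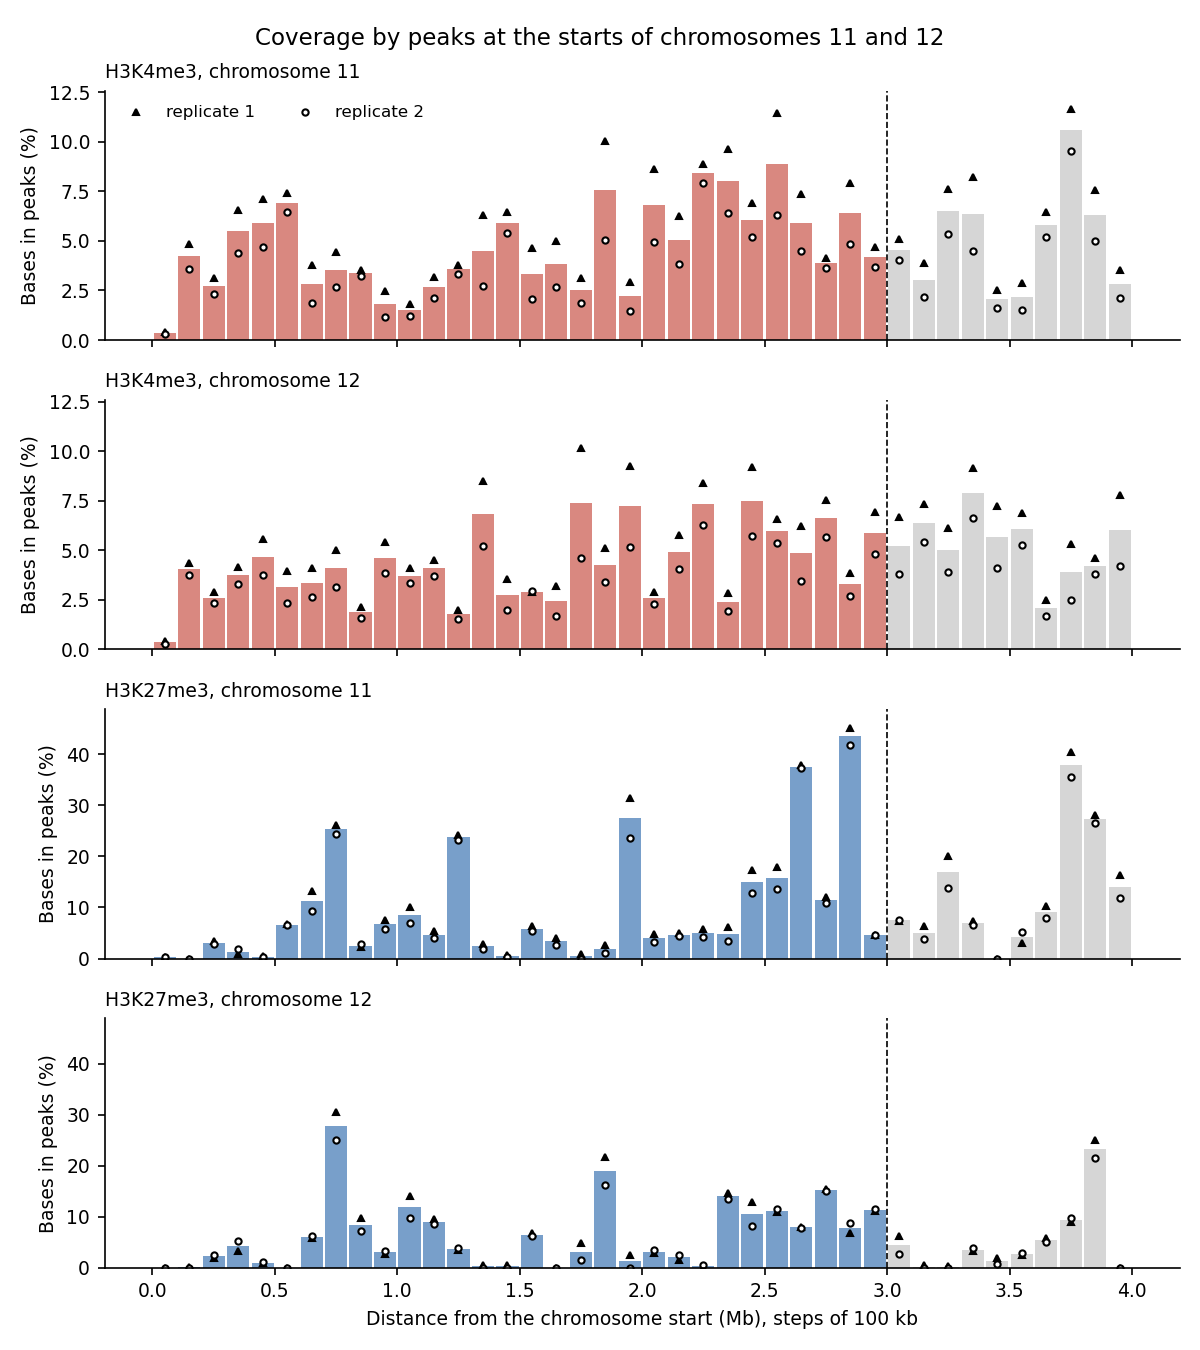
Percent of bases in peaks in steps of 100 kb from the start of chromosomes 11 and 12, for H3K4me3 (red) and H3K27me3 (blue). Bars are means of 2 libraries, triangles replicate 1 and circles replicate 2, the dashed line marks 3 Mb and grey bars the steps after it. H3K4me3 is nearly absent from the first step of both chromosomes, and H3K27me3 forms separate maxima, near 0.7 to 0.8 Mb on both chromosomes and at 2.8 to 2.9 Mb on chromosome 11.

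The limit of 3.0 Mb cut no peak. The last H3K4me3 peak inside it lay at 2971286 to 2971593 on chromosome 11 and at 2996176 to 2996511 on chromosome 12 (replicate 1), and the first outside at 3031031 to 3031259 and 3008703 to 3009002. For H3K27me3 the last inside lay at 2932846 to 2933594 and 2996182 to 2996546, and the first outside at 3035970 to 3037257 and 3033098 to 3033876 (replicate 1). Mean H3K4me3 coverage was 4.19% in the last step inside and 4.57% in the first outside on chromosome 11, and 5.89% and 5.23% on chromosome 12. For H3K27me3 the values were 4.53% and 7.49% on chromosome 11 and 11.3% and 4.50% on chromosome 12, where the following steps, up to 3.3 Mb, held 0.242% and 0.200%.

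The next comparison asked whether the 2 ends carried the marks at like distance from the chromosome start. Over the 30 steps of 100 kb, mean coverage of the 2 ends correlated weakly, with Pearson r = 0.19 and Spearman rho = 0.14 for H3K4me3 and r = 0.30 and rho = 0.43 for H3K27me3. Replicates of the same end were far more alike over the same steps, with r of 0.89 and 0.92 on chromosomes 11 and 12 for H3K4me3, and of 0.99 and 0.97 for H3K27me3. These coefficients are descriptions, because neighbouring steps are not independent and the 2 ends come from the same libraries. For H3K4me3 r was 0.058 without the nearly empty first step, and 0.028 without the 2 steps farthest from the median of chromosome 11, which were the highest steps at 2.5 to 2.6 and 2.2 to 2.3 Mb. The weak H3K4me3 relation was thus lost on leaving out either. For H3K27me3 r without the 2 farthest steps was 0.39.

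**Figure D3:**
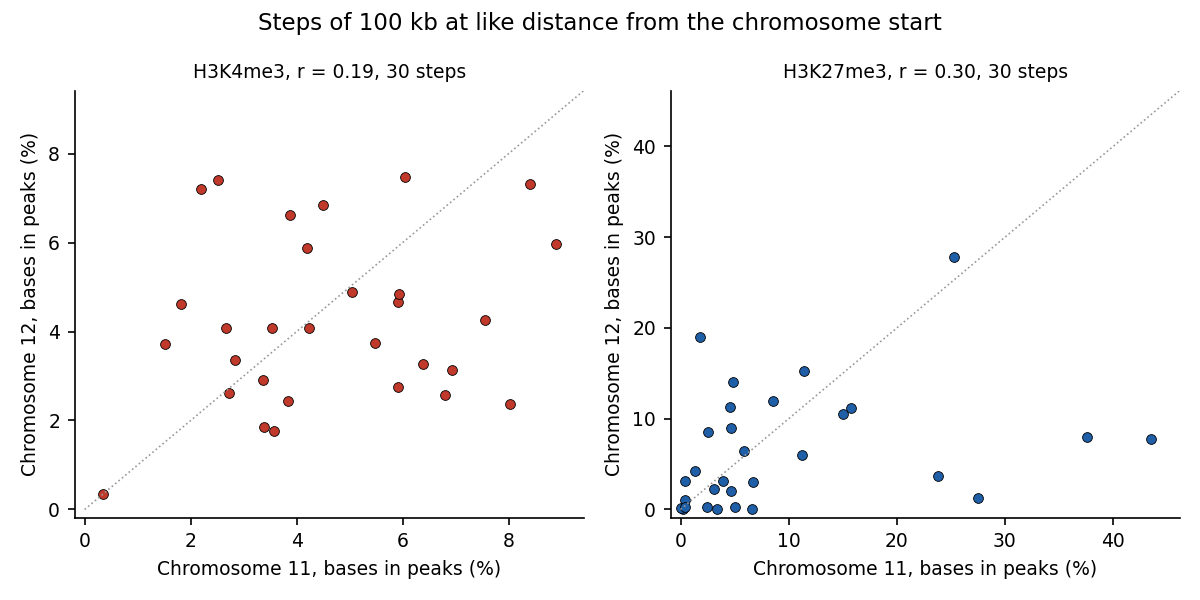
Mean coverage of 2 libraries in 30 steps of 100 kb, chromosome 11 (x axis) against chromosome 12 (y axis) at like distance from the start, in percent of bases, with the dotted line at equal coverage. The H3K4me3 step near the origin is the first 100 kb. The H3K27me3 step with over 25% on both axes is 0.7 to 0.8 Mb, and the steps with 43.6% and 37.5% on chromosome 11 had 7.80% and 7.96% on chromosome 12.

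The correlation depended on the size of the steps. It was 0.096 for H3K4me3 and 0.14 for H3K27me3 in 60 steps of 50 kb, and 0.54 and 0.74 in 15 steps of 200 kb. The value for H3K27me3 at 200 kb was higher than those of all other 65 pairs of chromosome starts, which ranged from -0.44 to 0.69 with a median of -0.096. That of H3K4me3 was exceeded by 3 pairs, and at 100 kb the values were exceeded by 12 pairs for H3K4me3 and by 4 for H3K27me3. The position of the 200 kb grid mattered as well. Shifted by 100 kb, and so without the first and last 100 kb of the ends, it gave 0.67 for H3K4me3 and 0.48 for H3K27me3. The other pairs were not recomputed on the shifted grid. A −log10 q of 5 or more removed most H3K27me3 peaks, and the H3K27me3 value was then 0.29 at 200 kb and 0.0029 at 100 kb. In the 8 following blocks of 3 Mb, r at 100 kb ranged from -0.27 to 0.32 for H3K4me3 and from -0.24 to 0.29 for H3K27me3, so the ends reached 0.30 for H3K27me3 where the highest other block reached 0.29.

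Because copies of a duplicated segment need not keep the same distance from the chromosome start, chromosome 12 was also shifted against chromosome 11 by up to 500 kb, in steps of 10 kb. With no shift r was -0.030 for H3K4me3 and -0.028 for H3K27me3. The highest r for H3K27me3 was 0.29 with chromosome 12 shifted by 40 kb, followed by 0.25 at -100 kb, where a positive shift sets a position on chromosome 11 beside one farther along chromosome 12. Both H3K27me3 libraries gave the same 2 shifts. For H3K4me3 the highest r was 0.22 at -90 kb, again in both libraries, at 0.21 and 0.19. The median r over all shifts was 0.034 for H3K27me3 and 0.041 for H3K4me3. A shift picked as the highest of many is higher than that median in any pair of profiles. Replicates of the same end were much alike, so a shift common to both libraries says little about the match of the ends. Other pairs of chromosome starts were not shifted.

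**Figure D4:**
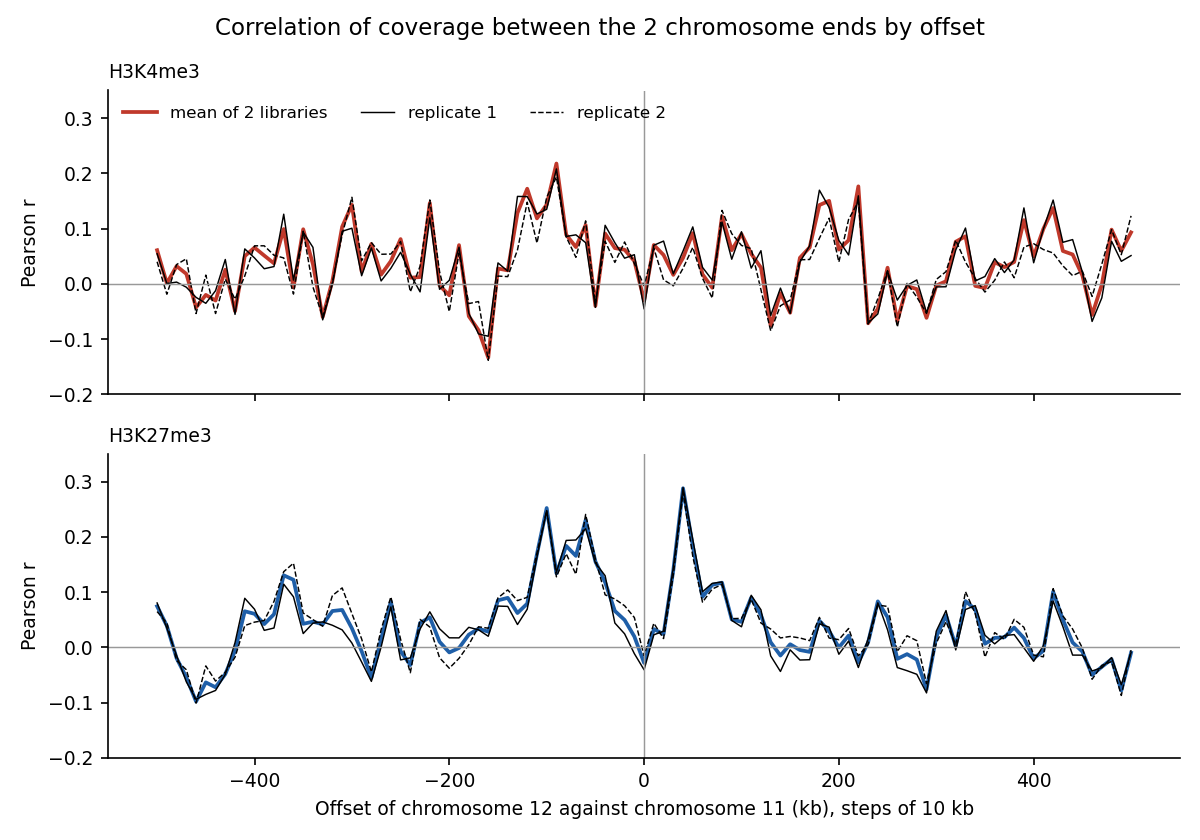
Pearson r of coverage in steps of 10 kb between the first 3 Mb of chromosomes 11 and 12 (y axis) as chromosome 12 is shifted against chromosome 11 (x axis, kb), for H3K4me3 (top) and H3K27me3 (bottom). Thick lines are means of 2 libraries and thin lines single libraries. The highest points are at -90 kb for H3K4me3 (r = 0.22) and at 40 kb for H3K27me3 (r = 0.29), with a next H3K27me3 point at -100 kb.

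In blocks of 500 kb the shift with the highest H3K27me3 r changed along the end. It was 10 kb in the first block (r = 0.80), 40 kb at 0.5 to 1.0 Mb (r = 0.51), 310 kb at 1.0 to 1.5 Mb (r = 0.47), -80 kb at 1.5 to 2.0 Mb (r = 0.63), -70 kb at 2.0 to 2.5 Mb (r = 0.46) and -110 kb at 2.5 to 3.0 Mb (r = 0.37). The first block held little H3K27me3. Its mean coverage per 100 kb step was at most 3.10% on chromosome 11 and 4.25% on chromosome 12. The r of that block thus rests on few peaks, and a shift of 50 kb gave 0.72 as well. The 2 libraries gave the same shift in the last 3 blocks. In the first block they gave 50 kb and 10 kb, at 0.5 to 1.0 Mb 40 kb and -390 kb, and at 1.0 to 1.5 Mb -480 kb and 310 kb. The H3K4me3 shifts in the same blocks were 280, -130, 50, 80, 200 and -90 kb, with r of at most 0.39. In the last block alone was the H3K4me3 shift near that of H3K27me3, and there its libraries gave -280 and -90 kb.

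The maxima of H3K27me3 can be followed in the 100 kb steps, as means of 2 libraries. The steps with the highest coverage before 1 Mb coincided, with means of 25.3% on chromosome 11 and 27.8% on chromosome 12 at 0.7 to 0.8 Mb. The maximum of chromosome 11 at 1.9 to 2.0 Mb, 27.5%, faced 1.29% on chromosome 12, where the neighbouring step at 1.8 to 1.9 Mb held 19.0%. The maximum at 1.2 to 1.3 Mb on chromosome 11, 23.8%, faced 3.68%. The pair of maxima at 2.6 to 2.7 and 2.8 to 2.9 Mb on chromosome 11 faced 7.96% and 7.80%, and no step of chromosome 12 between 2 and 3 Mb reached more than 15.3%.

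Regions, taken as runs of bases covered in both replicates, were then compared, and the long H3K27me3 regions were more numerous on chromosome 11. The chromosome 11 end held 209 H3K27me3 regions covering 213 kb and the chromosome 12 end 136 covering 141 kb, with nearly equal medians of 576 and 573 bp. Of the 209 regions on chromosome 11, 28 measured at least 2000 bp, and 16 of these lay beyond 2 Mb. Of the 136 on chromosome 12, 14 did, and 6 of these lay beyond 2 Mb. Per Mb, regions of at least 2000 bp numbered 9.33 in the chromosome 11 end against 4.77 in its rest. On chromosome 12 they numbered 4.67 against 4.89, so that end had no excess at this length. A peak of 1 replicate that the other called in parts counts as several regions. Each end had 5 regions of at least 5000 bp, or 1.67 per Mb, against 0.462 per Mb in the rest of chromosome 11 and 1.10 in the rest of chromosome 12. Regions of at least 2000 bp held 45.7% of the H3K27me3 bases of the chromosome 11 end against 35.2% in its rest, and 43.8% against 46.7% on chromosome 12.

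The 3 longest H3K27me3 regions of the chromosome 11 end lay at 2693205 to 2700052 (6848 bp), 2887456 to 2894154 (6699 bp) and 1239118 to 1245190 (6073 bp). Among the fold values of their list, their peaks stood at percentiles 88.4, 99.2 and 99.9 in replicate 1 and 93.4, 99.9 and 99.9 in replicate 2. Those of the chromosome 12 end lay at 2742493 to 2750240 (7748 bp), 753928 to 761257 (7330 bp) and 1143872 to 1150630 (6759 bp), at percentiles 90.6, 95.7 and 97.1 in replicate 1 and 74.0, 96.7 and 98.7 in replicate 2. All 6 held H3K4me3, in 2 regions each for the longest of either end (14.6% and 13.0% of their bases) and in 1 region each for the other 4 (2.93 to 6.42%). The remaining regions of at least 5000 bp held none. They lay at 1266634 to 1272524 and 2877522 to 2883389 on chromosome 11, and at 1029121 to 1034398 and 1875993 to 1881133 on chromosome 12. Of all H3K27me3 regions of the ends, 15.8% and 14.7% touched H3K4me3 (chromosomes 11 and 12). Chosen after their values were seen, groups of 5 H3K27me3 regions of at least 2000 bp lay close together at 2840837 to 2859617 and at 2877522 to 2900488 on chromosome 11. Replicate 1 called most of the latter group as 1 peak of 19842 bp at 2877233 to 2897074, whereas the widest replicate 2 peak of that end measured 7047 bp and lay elsewhere.

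H3K4me3 regions were more alike between the ends. There were 233 on chromosome 11 and 228 on chromosome 12, with medians of 355 and 344 bp and a total of 94.7 and 89.2 kb. Regions under 500 bp made up 77.3% and 78.5% of them, against 69.9% and 67.1% in the rest of the chromosomes. The widest regions of the chromosome 11 end lay at 539586 to 540928 (1343 bp), 2169349 to 2170648 (1300 bp) and 2339615 to 2340809 (1195 bp). On chromosome 12 the widest lay at 2251601 to 2253849 and measured 2249 bp, followed by those at 2546446 to 2547633 (1188 bp) and 1189129 to 1190191 (1063 bp). None of these 6 overlapped H3K27me3. Such overlap was uncommon in both ends, at 15.5% of H3K4me3 regions on chromosome 11 and 10.5% on chromosome 12. Its absence from 6 regions therefore does not set the widest apart from the others.

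The marks were then compared with each other. A smaller share of the H3K4me3 bases lay in H3K27me3 in the ends than in the rest of the same chromosomes. Of the H3K4me3 bases, 12.5% lay in H3K27me3 in the chromosome 11 end against 18.8% in the rest, and 8.08% against 14.5% on chromosome 12. For the 4 pairings of single libraries the shares were 12.2 to 25.7% in the chromosome 11 end against 18.6 to 32.8% in the rest, and 8.34 to 18.1% against 14.2 to 24.8% on chromosome 12, and each pairing was lower in the end. The shares varied mainly with the H3K27me3 list. With H3K27me3 replicate 1 alone they were 23.6% in the chromosome 11 end and 17.5% in the chromosome 12 end. A −log10 q of 5 or more kept only 24.4% and 17.1% of the H3K27me3 peaks over all chromosomes (replicates 1 and 2). With it the share was 3.70% in the chromosome 11 end and 3.43% in the chromosome 12 end. With the end closed at 2.0 Mb the share was 6.94% and 3.58%. The share in the rest was not recomputed for either setting. The share of H3K27me3 bases in H3K4me3 did not separate end from rest: it was 5.54% against 7.26% on chromosome 11 and 5.10% against 6.38% on chromosome 12 for bases in both replicates, but 3 of the pairings with H3K27me3 replicate 1 were higher in the end. These were 9.23% against 9.13% on chromosome 11, and 13.5% against 12.8% and 9.09% against 8.19% on chromosome 12.

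Divided by the H3K27me3 coverage of the same stretch, the share of H3K4me3 bases in H3K27me3 was 1.75 in the chromosome 11 end and 1.72 in the chromosome 12 end, against 4.16 and 3.40 in the rest. For the 4 pairings of single libraries the quotient was 1.41 to 2.52 against 3.32 to 4.75 on chromosome 11. On chromosome 12 it was 1.40 to 2.67 against 2.73 to 4.12. A quotient of 1 would mean that H3K4me3 bases met H3K27me3 as often as all bases did. Over steps of 100 kb, H3K4me3 and H3K27me3 coverage correlated at r = 0.085 and 0.087 in the 2 ends, against 0.32 (260 steps) and 0.21 (245 steps) in the rest of chromosomes 11 and 12. The rest is far longer and holds stretches poor in both marks. Mean H3K4me3 and H3K27me3 coverage was 1.31% and 2.26% at 12 to 15 Mb of chromosome 11. It was 1.57% and 1.92% at 9 to 12 Mb of chromosome 12. The part of such stretches in the quotient and in r was not tested.

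**Figure D5:**
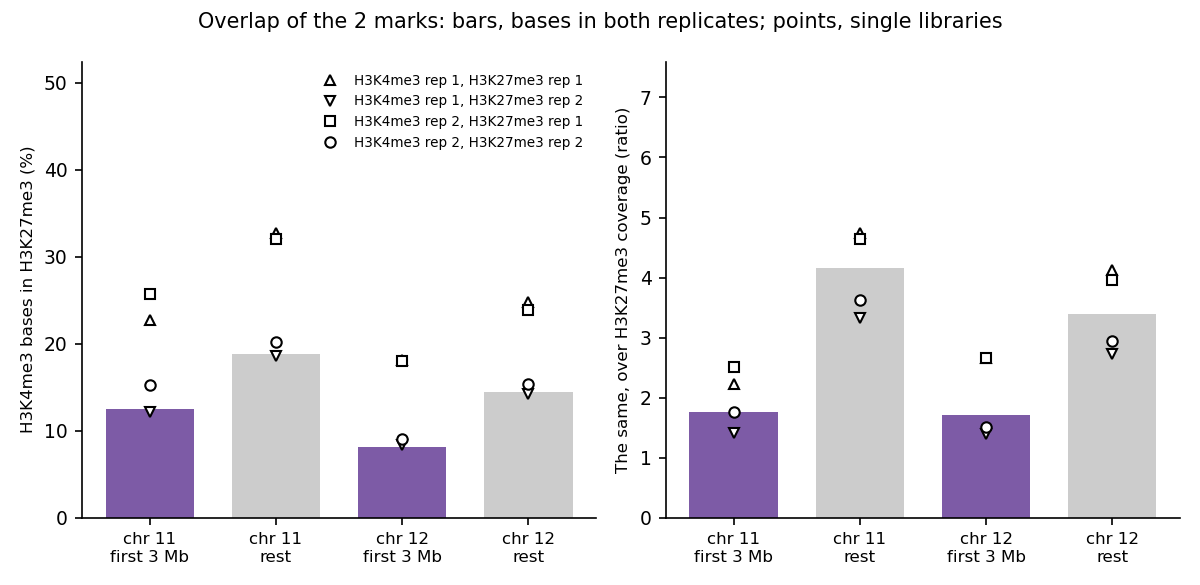
Share of H3K4me3 bases that lie in H3K27me3 (left, percent) and the same share divided by the H3K27me3 coverage of the stretch (right), in the first 3 Mb and the rest of chromosomes 11 and 12. Bars use bases covered in both replicates and points are the 4 pairings of single libraries. Each end lies below its rest, at 12.5% against 18.8% on chromosome 11 and 8.08% against 14.5% on chromosome 12.

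Counted by region, 36 of 233 H3K4me3 regions in the chromosome 11 end touched an H3K27me3 region by at least 1 bp, or 15.5% (95% Wilson interval 11.4 to 20.6%), against 21.7% (19.3 to 24.3%) in the rest. In the chromosome 12 end it was 24 of 228, or 10.5% (7.18 to 15.2%), against 17.1% (14.9 to 19.5%) in the rest. The share over all chromosomes was 13.9%, which lies within the intervals of both ends, so the ends were close to the genome while the rest of these 2 chromosomes lay above it. Of the H3K27me3 regions, 15.8% and 14.7% touched H3K4me3 in the ends and 15.7% and 15.6% in the rest. These intervals reflect counting error alone, since neighbouring regions are not independent.

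Stretches with both marks were few and short. The chromosome 11 end had 36 with a median of 314.5 bp and the chromosome 12 end 24 with a median of 249 bp, and none reached 1000 bp. The longest on chromosome 11 lay at 2697109 to 2697830 (722 bp), 2843029 to 2843568 (540 bp) and 2901608 to 2902096 (489 bp). Those on chromosome 12 lay at 2979976 to 2980712 (737 bp), 2749522 to 2750063 (542 bp) and 2748047 to 2748510 (464 bp). All 6 lay beyond 2 Mb, where the coverage of each mark was also highest in both ends. How many of the other stretches lay there was not counted. At the longest of chromosome 11 the fold of the H3K27me3 peaks stood at percentiles 88.4 and 93.4 of their lists, and that of the H3K4me3 peaks at 15.1 and 3.99. At the longest of chromosome 12 the H3K27me3 percentiles were 91.0 and 67.7 and those of H3K4me3 28.9 and 53.3.

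Replicates found somewhat fewer H3K4me3 peaks in common in the ends than elsewhere. Of the members in H3K4me3 replicate 1, 71.4% (95% Wilson interval 67.7 to 74.9%) shared at least 1 bp with a replicate 2 peak, against 75.3% in the rest of these chromosomes and 79.4% over all chromosomes. In replicate 2 the share was 89.3% (86.4 to 91.7%) against 92.2% and 93.3%. The intervals of the rest, 73.6 to 76.9% in replicate 1 and 91.1 to 93.3% in replicate 2, overlapped those of the ends. For H3K27me3 the shares of 67.7% (62.9 to 72.1%) and 78.7% (74.5 to 82.4%) lay close to the rest of the chromosomes, at 68.9% and 79.6%, and to all chromosomes, at 67.2% and 79.8%. The H3K4me3 members of the ends were also narrower, as given above, and the part of width in their lower sharing was not tested.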

How the data were processed

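Chromatin immunoprecipitation and sequencing was done on rice male meiocytes, and 4 of 5 samples (2 libraries for each of 2 marks) were analysed. Each deposited list gives peaks with a score, a fold enrichment (a ratio over the caller's background) and −log10 p and −log10 q values, all made by the authors. Per the submitters' processing notes, MACS2, Bowtie2, fastp, SAMtools, Picard and deepTools were used. Versions, thresholds, the control, the genome build and the placement of reads that match both chromosome ends were not given in the sources used here, and the effect of such reads on the values was not tested. The deposited peak names carry different tags (merge, uniq and subsample) in 3 lists. H3K4me3 lists are narrow peaks and H3K27me3 lists broad peaks, so widths depend on the caller. Depth is unknown.

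Peak intervals were compared in Python 3.11.15 with numpy 2.4.6, tests were run with scipy 1.17.1 and figures drawn with matplotlib 3.10.9. Chromosome lengths were the last peak end over the 4 lists (29.0 and 27.5 Mb for chromosomes 11 and 12). Positions are counted from 1. Regions are bases covered in both replicates. Coverage steps were 100 kb, and sharing needed 1 bp. Libraries were the replicates of the exact permutation tests. Alternatives were a −log10 q of at least 5, an end at 2.0 Mb, other step sizes, overlap of 50% of both peaks, the last 3 Mb as comparison and leaving out each replicate. Regions were named by a rule: on each end the 3 longest of each mark and of both marks together, the highest and lowest steps, and the peaks next to 3.0 Mb. The code was tested on simulated lists. The members, lists and comparisons were chosen with earlier results of these data known.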

Additional observations from a re-analysis of the deposited data

Results flagged for a closer look

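On chromosome 11 the peak widths of the 2 marks moved in opposite directions from the rest to the end in every library, and the difference was not tested. The median width in the end minus that in the rest was -47.25 bp for H3K4me3 (-69 and -25.5 bp in replicates 1 and 2) and 44.5 bp for H3K27me3 (54 and 35 bp), as means of 2 libraries. On chromosome 12 it was -102 and -63 bp for H3K4me3 and 102 and -2 bp for H3K27me3.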

How the results depend on the processing

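Of 29 values recomputed, the ratios, log2 differences and correlations not named below for a setting kept their direction in it. Widths, fold percentiles, sharing and overlap shares cannot fall below 0 and were recomputed for the ends alone. Whether their differences from the rest held in these settings was therefore not tested. A −log10 q of at least 5 removed most H3K27me3 peaks and a smaller part of the H3K4me3 peaks, as given above. With a −log10 q of at least 5, coverage ratios of end to rest were 1.82 and 1.58 for H3K4me3 and 1.81 and 1.17 for H3K27me3 (chromosomes 11 and 12), and density ratios 1.83 for H3K4me3 on chromosome 12 and 1.43 for H3K27me3 on chromosome 11. The ratio of the chromosome 11 to the chromosome 12 end was then 1.40 for H3K27me3, the correlation of the ends 0.0029 for H3K27me3 and the H3K4me3 share in H3K27me3 3.70% and 3.43% on chromosomes 11 and 12. The log2 difference between marks fell from 0.31 to 0.024 on chromosome 11 (exact permutation p = 1.0). Sharing was 52.2% and 93.4% for H3K4me3 replicates 1 and 2 and 54.8% for H3K27me3 replicate 1. Median fold percentiles were 57.3 and 54.9 for H3K4me3 and 91.4 and 91.0 for H3K27me3, whose median widths were 1898 and 1659 bp.

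With the end at 2.0 Mb, the H3K27me3 ratios on chromosome 12 turned below 1 (0.909 for density, 0.942 for coverage) and were 1.03 and 1.04 on chromosome 11. H3K4me3 density ratios were 1.77 and 1.86 and coverage ratios 1.43 and 1.41. The ratio of the ends was 0.984 for H3K4me3, turned below 1, and 1.26 for H3K27me3, their correlation 0.075 and 0.37, the H3K27me3 fold percentile on chromosome 12 62.1, and the H3K4me3 share in H3K27me3 6.94% and 3.58%. Against the last 3 Mb, coverage ratios were 2.22 for H3K4me3 on chromosome 11 and below 1 on chromosome 12 (0.719 and 0.511). The cause of these changes was not tested.

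The correlation of the ends was 0.096 and 0.14 (H3K4me3 and H3K27me3) in 50 kb steps, 0.54 and 0.74 in 200 kb steps, and 0.29 and 0.22 on bases covered in both replicates. In settings chosen after seeing the data, it was 0.058 for H3K4me3 without the first 100 kb, 0.46 and 0.71 in 200 kb steps without the first 200 kb, 0.67 and 0.48 on the shifted 200 kb grid, and for H3K4me3 0.53 in 200 kb steps with the q threshold. With 50% overlap, sharing was 58.0, 68.5, 42.4 and 40.4% in H3K4me3 replicates 1 and 2 and H3K27me3 replicates 1 and 2.

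Leaving out each replicate gave H3K4me3 shares in H3K27me3 of 12.1 to 23.6% on chromosome 11 and 8.08 to 17.5% on chromosome 12, the highest without H3K27me3 replicate 2. With the replicate number as a block, the log2 difference between marks was 0.31 and 0.53 (exact sign-flip permutation p = 0.5, the smallest for 2 pairs). Replicate deviations of the marks correlated at 0.28 over 3723 steps, and the labels do not say that a number marks a shared batch. Read depth is unknown, so differences between replicates in number and width of peaks cannot be told apart from depth.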

Other observations

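H3K27me3 peaks found in 1 replicate alone met H3K4me3 differently in the 2 lists, in both ends. Of those found in replicate 1 alone, 19 of 81 on chromosome 11 (23.5%, 95% Wilson interval 15.6 to 33.8%) and 14 of 48 on chromosome 12 (29.2%, 18.2 to 43.2%) touched an H3K4me3 region. Of those found in replicate 2 alone, 0 of 45 and 0 of 44 did, which allows shares of up to 6.67% and 6.82% at 3 counts (upper 95% Wilson limits 7.87% and 8.03%). In the rest of the chromosomes the shares were 19.2% and 20.1% for replicate 1 and 0.664% and 0.382% for replicate 2. The 2 sets are not independent, because being found in replicate 2 alone requires that replicate 1 called nothing there.

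The widest H3K27me3 gaps of the ends measured 184 and 218 kb on chromosome 11 (replicates 1 and 2), starting at 63037 and 63036. On chromosome 12 they measured 194 and 235 kb, and the replicates differed in the place of the widest, at 405921 to 600053 in replicate 1 and 1285278 to 1520032 in replicate 2. In replicate 2 the stretch from 406632 to 618030 was the second widest, at 211 kb.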
